A study of Meleagris gallopavo with 3 samples.

Results

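The fibroblast growth factor (FGF) signalling genes of cultured turkey muscle satellite cells are described here. They were taken by symbol from the deposited expression table, as every gene named FGF, FGFR, FGFBP, SPRY, SPRED, FLRT, GPC1 to GPC6, FRS2, FRS3, ETV1, ETV4 or ETV5, which gave 40 of 23976 genes. Of the 40, 28 had at least 5 exon reads per 1000000 exon reads of the library (CPM) in at least 1 library, and 12 did not. The symbol rule also took FGFR1OP and FGFR1OP2, which name proteins outside the receptor family and are kept apart below. The table had no gene under the symbols FGFR2, FGF1, FGF9 or FGF10, so the shares of receptors and ligands below leave these out. Other members of these families were not analysed here.

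Satellite cells, the stem cells of skeletal muscle, came from the breast muscle of turkeys 1 day old and were grown for 2 weeks before they were divided into 3 cultures. The adherent undifferentiated culture stayed on gelatin in McCoy's 5A medium with 15% chicken serum. The adherent differentiated culture, described by the study as fused to myotubes, received DMEM with 4% horse serum. The suspension culture was kept in rotated flasks in McCoy's 5A medium with 15% chicken serum for 3 months. RNA of 3 experiments was pooled into 1 library per culture, and the labels give no treatment and name no genotype or strain. The suspension culture differed from the adherent undifferentiated one in culture form and may have differed in time in culture, which cannot be told apart, and the differentiated culture differed from it in medium and serum. With 1 library per group no difference has a replicate check and no test was possible, so a ratio is called here only when it is at least 2-fold. Intervals are exact 95% intervals that cover counting error only.

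Fibroblast growth factors are secreted proteins that bind receptor tyrosine kinases together with heparan sulphate chains, such as those carried by glypicans. The docking proteins FRS2 and FRS3 pass the signal to RAS and the ERK kinases, ERK activity raises transcription of the ETS factors ETV1, ETV4 and ETV5, and Sprouty and SPRED proteins, induced or activated by the same signal, damp it. In muscle, FGF signalling is known to keep satellite cells dividing and to delay their fusion, and in the bird embryo FGFR4 marks dividing muscle progenitors.

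The libraries are called by the headings of their count columns, Suspension, Adherent and Differentiating, because the table uses these headings in 2 ways. The deposited fold change headed Suspension against Adherent was that of the columns so headed, within 0.02 on the log2 scale in 100.0% of 12196 genes with at least 10 reads in both. The deposited fold change headed Suspension against Differentiating was instead that of the count columns headed Adherent and Differentiating, in 100.0% of 12207 genes, and the one headed Adherent against Differentiating was that of the columns headed Suspension and Differentiating, in 100.0% of 12154 genes. Which use is right could not be settled from the values. If the columns headed Suspension and Adherent are exchanged, every statement below about one of these cultures belongs to the other.

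The libraries held 17444865 to 23844835 exon reads, so that 1 read was 0.0419 to 0.0573 CPM. Reads on introns made up 15.2%, 24.3% and 12.0% of gene reads under the headings Suspension, Adherent and Differentiating. Of 12 listed satellite cell and muscle markers 6 were in the table, and their summed level was 6289, 3020.3 and 1337 CPM in the same order. PAX7, the transcription factor of satellite cells, had 24.2, 4.93 and 1.10 CPM and MYOD1, the myoblast factor, 768, 1522 and 93.8 CPM. DES had 2781, 1064 and 940.3 CPM. Of the 6 only CHRNA1, at 2674, 159 and 298 CPM, was not lowest headed Differentiating. MYOG, MYMK and MYMX were among the listed markers absent from the table. The 10 fibroblast markers in the table summed to 17066, 9524 and 59454 CPM, mostly COL1A2 and COL3A1. The library labelled as differentiated thus had the lowest muscle and the highest fibroblast total. COL1A2, COL3A1 and PRRX1 were, like the sum, lowest headed Adherent. The other fibroblast markers were higher headed Adherent than headed Suspension, as DCN was, at 164, 1199 and 2104 CPM. Of the 10 only TCF21, at 8.93, 35.5 and 3.94 CPM, was not highest headed Differentiating. Summed markers of several other cell types were highest in the library headed Adherent, though not every single marker was. There, 5 Schwann cell markers summed to 268 CPM against 9.23 and 13.4 CPM, 6 endothelial markers to 414 CPM against 22.8 and 73.6 CPM, and 5 leukocyte markers to 107 CPM against 12.5 and 10.3 CPM. The 3 adipocyte markers in the table also summed highest headed Adherent, at 23.4, 225 and 76.9 CPM under the headings Suspension, Adherent and Differentiating. That sum followed ADIPOQ, at 8.09, 210.0 and 29.4 CPM. PPARG, at 14.8, 14.8 and 38.3 CPM, and PLIN1, at 0.461, 0.344 and 9.16 CPM, were instead highest headed Differentiating. Other lists went another way, with 5.75, 34.7 and 98.3 CPM for chondrocyte markers, 976, 1218 and 1274 CPM for pericyte and smooth muscle markers and 311, 59.8 and 234 CPM for neuron markers. Single genes weighed heavily in these sums, such as ACAN (0.0419, 0.401 and 75.4 CPM) for chondrocytes and TUBB3 (308, 49.9 and 231 CPM) for neurons. Some markers of the same lists were instead highest headed Adherent. Among them were MATN1 (0.0419, 28.3 and 0.0438 CPM), MYH11 (1.01, 197 and 1.18 CPM) and STMN2 (0.0419, 3.21 and 0 CPM). The part of these cells in the results below was not tested, and in RNA of whole cultures fewer cells of a type and less RNA per cell cannot be told apart.

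Most of the described genes differed by at least 2-fold somewhere. At least 1 comparison passed 2-fold in 23 of 28 (82.1%), against 55.1% of the 11022 genes of the table with at least 5 CPM in a library. Each of the 3 comparisons passed it in 6, ETV4, FGF12, FGF16, FGF18, FGFR4 and SPRY2 (21.4%), against 9.65% of all genes. The library headed Adherent held the highest level of 14 of the 28 (50.0%, against 38.5% of all genes), the library headed Suspension of 8 (28.6%, against 38.8%) and the library headed Differentiating of 6 (21.4%, against 22.7%). At least 2-fold above both other libraries were 9 genes in the library headed Adherent (ETV5, FGF12, FGF18, FGF23, FGFR1, FGFR4, SPRY1, SPRY2 and SPRY3, against 15.5% of all genes), 4 in the library headed Suspension (ETV4, FGFR1OP, FLRT2 and GPC1, against 6.28%) and 2 in the library headed Differentiating (FGF16 and FGFBP1, against 3.92%). In 8 of the 28 genes only 1 library reached 5 CPM, so that these had to differ to some degree to be counted.

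**Figure D1:**
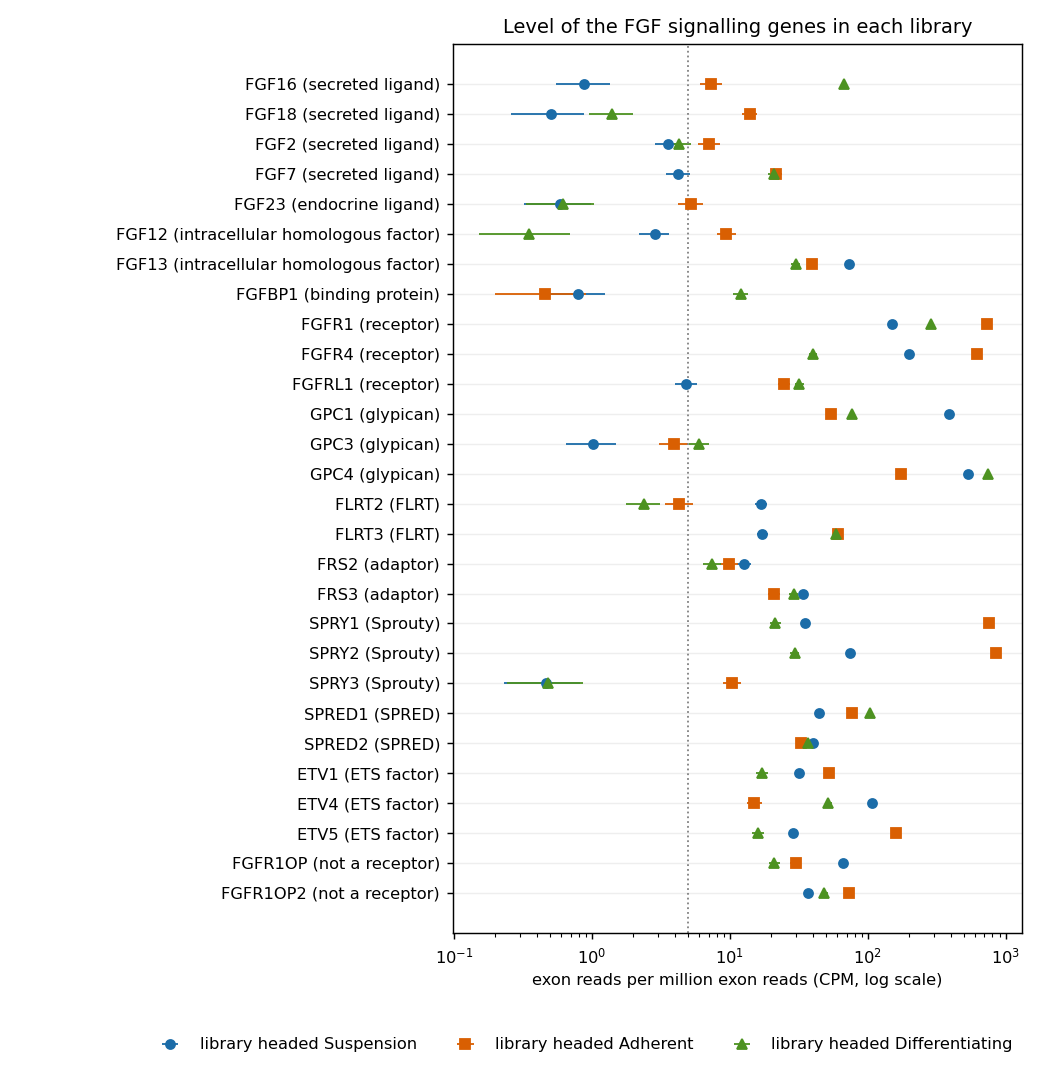
Level of each of the 28 genes with at least 5 CPM in a library, in CPM on a log axis, with 1 point per library and exact 95% counting intervals. SPRY1 and SPRY2 stand at 759 and 842 CPM in the library headed Adherent and at 21.4 to 73.8 CPM in the others, while FGF16 is highest in the library headed Differentiating at 67.5 CPM.

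Among the secreted ligands, a different gene led in each library per kilobase of exon. By CPM, which does not allow for gene length, FGF7 led in the libraries headed Suspension and Adherent and FGF16 in the library headed Differentiating. The lead of FGF7 is uncertain, since 19.5% of its exon reads were unique to 1 gene. Headed Suspension its interval (3.45 to 5.15) also overlapped that of FGF2 (2.85 to 4.41). FGF16, a ligand of the FGF9 subfamily located at chr9:12672554-12678193, had 0.881 CPM (0.545 to 1.35) in the library headed Suspension, 7.34 CPM (6.12 to 8.72) in the library headed Adherent and 67.5 CPM (64.2 to 71.0) in the library headed Differentiating. The intervals did not overlap, and the level headed Differentiating was 76.7-fold that headed Suspension (log2 ratio 6.26, 5.64 to 6.96) and 9.20-fold that headed Adherent. The ratio to the library headed Suspension was the largest of the 28 genes in any comparison. It rested on 21 reads headed Suspension and came to 5.19 when 1 CPM was added to every level.

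FGF18, a growth factor of cartilage and bone at chr15:2415189-2464642, had 0.503, 13.9 and 1.40 CPM under the headings Suspension, Adherent and Differentiating. It was thus high in 1 library only, 27.6-fold above Suspension (log2 ratio 4.78, 3.95 to 5.76) and 9.89-fold above Differentiating. The ratio of Differentiating to Suspension, 1.48 (0.48 to 2.57), rested on few reads and came to 0.68 when 1 CPM was added to every level and to 0.98 with whole-gene reads. FGF7, the keratinocyte growth factor made by mesenchymal cells, had 4.24, 21.6 and 20.8 CPM in the same order, low in the library headed Suspension and with overlapping intervals in the others. Its model overlaps that of FAM227B and 19.5% of its exon reads were unique to 1 gene, so that its reads are uncertain.

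FGF2, the classic mitogen of cultured satellite cells, had 3.56 CPM (2.85 to 4.41), 7.05 CPM (5.86 to 8.41) and 4.30 CPM (3.49 to 5.23) under the headings Suspension, Adherent and Differentiating. It was highest in the library headed Adherent, passed 2-fold in no comparison, and its intervals overlapped between the other libraries. Its ratio of Adherent to Suspension, 0.98 (0.57 to 1.40), lay just under the limit and passed it with median-of-ratios scaling (1.01) and with whole-gene reads (1.29). FGF23, in mammals a hormone made by bone cells, had 0.587, 5.22 and 0.614 CPM, 8.88-fold higher in the library headed Adherent than headed Suspension. Only 0.840% of its exon reads crossed a splice junction.

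Per kilobase of exon, the 10 secreted ligands in the table summed to 7.47, 38.3 and 64.7 CPM under the headings Suspension, Adherent and Differentiating. FGF2 made up 49.7% of that sum in the library headed Suspension, FGF18 made up 44.5% in the library headed Adherent, and FGF16 made up 79.4% in the library headed Differentiating. The ratio of FGF18 to FGF16 per kilobase was 0.923 (0.414 to 1.96), 3.05 (2.45 to 3.81) and 0.0335 (0.0229 to 0.0475) in this order, so that the order of these ligands was reversed between the libraries headed Adherent and Differentiating.

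The intracellular homologous factors FGF12 and FGF13 are not secreted and bind voltage-gated sodium channels. FGF12 had 2.85, 9.40 and 0.351 CPM under the headings Suspension, Adherent and Differentiating and was 26.8-fold higher headed Adherent than headed Differentiating (log2 ratio 4.74, 3.73 to 5.98). FGF13 had 73.5, 39.4 and 29.9 CPM, highest in the library headed Suspension, and was 2.46-fold lower headed Differentiating. These 2 genes of 1 subfamily thus had their highest level in different libraries. FGFBP1, a secreted carrier that releases FGFs from the matrix, had 0.797, 0.459 and 12.0 CPM. Like FGF16 it was high in the library headed Differentiating, 15.1-fold above Suspension (log2 ratio 3.91, 3.24 to 4.67) and 26.2-fold above Adherent, and its intervals in the lower libraries overlapped. Only 0.332% of the exon reads of FGFBP1 crossed a splice junction.

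The receptors differed in their balance. FGFR1, the receptor tied to satellite cell proliferation, at chr24:2315227-2330853, had 150.0 CPM (145 to 155), 729.8 CPM (717 to 743) and 286 CPM (279 to 293) under the headings Suspension, Adherent and Differentiating. It was 4.86-fold higher headed Adherent than headed Suspension (log2 ratio 2.28, 2.23 to 2.34). Its ratio of Differentiating to Suspension, 0.93 (0.87 to 0.99), was under 2-fold and passed it, at 1.10, with TMM scaling. FGFR4, the receptor of embryonic muscle progenitors, at chr15:9506671-9510688, had 200.0 CPM (194 to 206), 613 CPM (601 to 624) and 40.1 CPM (37.5 to 42.7). It was likewise highest in the library headed Adherent, but lowest in the library headed Differentiating, 15.3-fold below Adherent (log2 ratio of Adherent to Differentiating 3.93, 3.84 to 4.03) and 4.99-fold below Suspension.

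FGFRL1, a receptor that lacks the kinase domain, had 4.82, 24.6 and 31.9 CPM in the same order, 6.62-fold higher headed Differentiating than headed Suspension and 1.29-fold higher than headed Adherent. FGFR3 stayed under the minimum, at 0.168, 3.32 and 1.97 CPM, and its log2 ratio of Adherent to Suspension, 4.31, had a wide interval of 2.88 to 6.23. Per kilobase, FGFR4 took 64.2% of the receptor sum in the library headed Suspension, 52.9% headed Adherent and 13.7% headed Differentiating, while FGFR1 took 33.1%, 43.3% and 67.4% and FGFRL1 took 2.61%, 3.58% and 18.4%. FGFR4 therefore led in the libraries headed Suspension and Adherent and FGFR1 in the library headed Differentiating.

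**Figure D2:**
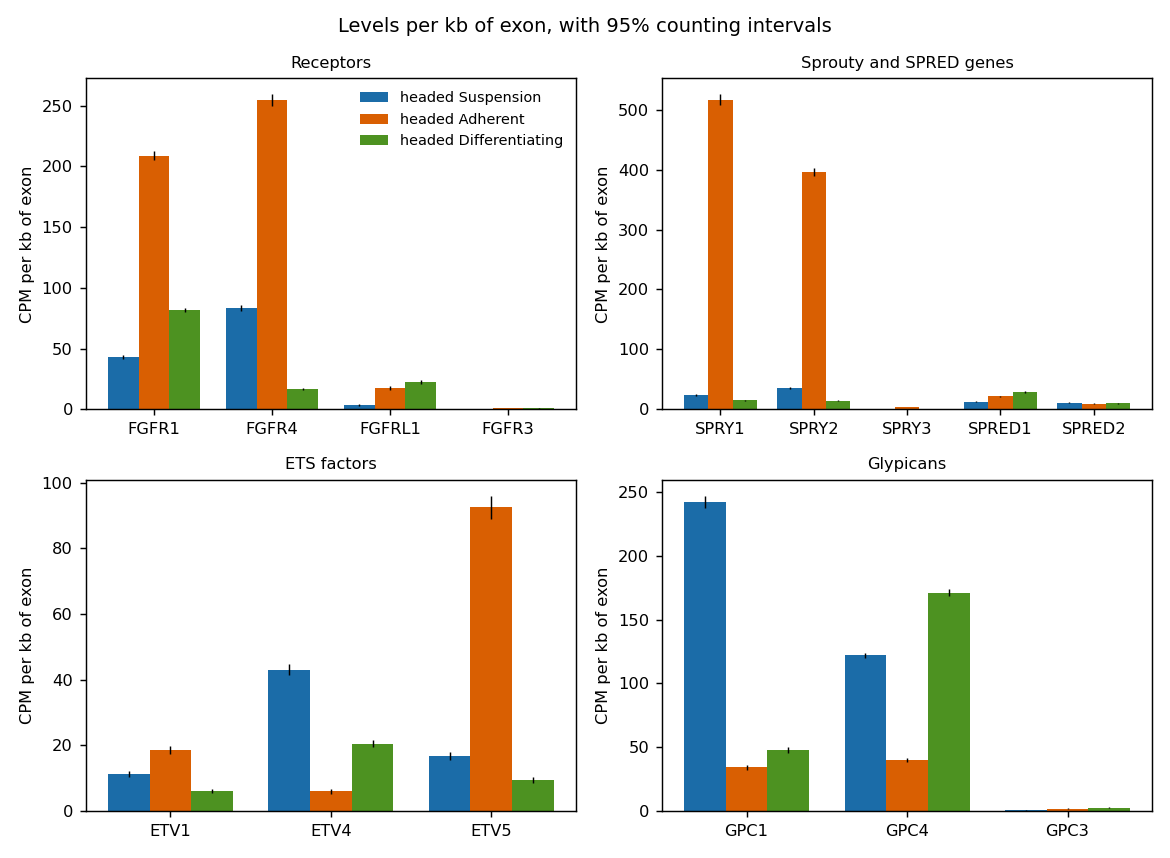
Levels of selected receptor, Sprouty, SPRED, ETS factor and glypican genes per kilobase of exon (CPM per kb, linear axis) in each library. Levels per kilobase allow genes of different length to be set against each other. GPC1 leads in the library headed Suspension at 242, SPRY1 in the library headed Adherent at 517 and GPC4 in the library headed Differentiating at 171.

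The glypicans, heparan sulphate proteoglycans held to the cell surface by a lipid anchor, were the most abundant of these genes in 2 libraries. GPC1, which in turkey satellite cells is studied as a modulator of FGF2 response, at chr11:594823-674264, had 386 CPM (379 to 394), 54.3 CPM (50.9 to 57.9) and 76.4 CPM (72.8 to 80.1) under the headings Suspension, Adherent and Differentiating. It was high in the library headed Suspension, 7.11-fold above Adherent (log2 ratio of Adherent to Suspension −2.83, −2.93 to −2.73) and 5.06-fold above Differentiating. GPC4, at chr9:3791878-3829462, had 532, 173 and 746 CPM, highest in the library headed Differentiating and 4.31-fold lower in the library headed Adherent.

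Per kilobase, the ratio of GPC4 to GPC1 was 0.504 (0.491 to 0.518), 1.17 (1.08 to 1.26) and 3.58 (3.40 to 3.76), so that GPC1 led among glypicans headed Suspension and GPC4 led headed Differentiating. The glypicans together summed to 365, 75.8 and 222 CPM per kilobase, lowest in the library where the receptors, at 129, 482 and 121 CPM per kilobase, were highest. GPC3 was scarce, at 1.01, 3.96 and 6.0 CPM. The FLRT proteins are cell surface proteins that can bind FGFR1. FLRT2 had 16.9, 4.30 and 2.37 CPM, highest in the library headed Suspension and 7.14-fold lower headed Differentiating. FLRT3 had 17.2, 60.5 and 59.2 CPM, lowest in the library headed Suspension, but it lies within MACROD2 and 1.95% of its exon reads were unique to 1 gene.

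The docking proteins differed little. FRS2 had 12.7, 9.92 and 7.45 CPM under the headings Suspension, Adherent and Differentiating, and each interval overlapped that of the next library in order. FRS3 had 33.8, 21.0 and 29.0 CPM and stayed within 2-fold in every comparison. Besides these 2 and FGF2, SPRED2 and FGFR1OP2 passed 2-fold in no comparison, while FGFR1OP, at 65.5, 29.9 and 21.0 CPM, was 3.13-fold lower headed Differentiating than headed Suspension. FGFR1OP2 had 36.7, 72.9 and 48.2 CPM.

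Of the Sprouty genes, inhibitors that are transcribed in answer to FGF signalling, SPRY1, SPRY2 and SPRY3 were highest in the library headed Adherent. SPRY1, which in mice is needed for satellite cells to return to rest, at chr4:32741850-32747233, had 35.0 CPM (32.6 to 37.4), 759 CPM (747 to 773) and 21.4 CPM (19.5 to 23.4) under the headings Suspension, Adherent and Differentiating. SPRY2, at chr1:148236879-148242124, had 73.8 CPM (70.4 to 77.3), 842 CPM (828 to 856) and 29.5 CPM (27.4 to 31.9). Both were high in 1 library and low in the others with no overlap of intervals. The ratio of Adherent to Suspension was 4.44 (4.34 to 4.54) for SPRY1, or 21.7-fold, and 3.51 (3.44 to 3.58) for SPRY2, or 11.4-fold, on the log2 scale. Against the library headed Differentiating the same genes were 35.5-fold and 28.5-fold higher. SPRY2 was the gene of rank 152 and SPRY1 that of rank 170 by CPM among the 23976 genes of the library headed Adherent.

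SPRY3 had 0.461, 10.4 and 0.482 CPM, again high in the library headed Adherent only, but none of its reads crossed a splice junction. Such reads were also few for SPRY1, at 0.721% of exon reads, and SPRY2, at 3.70%. Over all genes they made up 31.2% to 38.5% of the exon reads of a library. SPRY4 stayed under 5 CPM, at 0.713, 0.860 and 1.36 CPM with overlapping intervals, and was not highest headed Adherent. SPRY3 reached 5 CPM in the library headed Adherent only, so it had to differ to some degree to be counted. SPRY1, SPRY2 and SPRY3 were at least 2-fold higher headed Adherent than in either other library, where 15.5% of all genes were. The related SPRED genes, whose products bind neurofibromin and restrain RAS, did not have this pattern. SPRED1 had 44.1, 77.1 and 103 CPM, highest in the library headed Differentiating, and SPRED2 had 39.8, 32.6 and 36.9 CPM with each interval overlapping that of the next library. Per kilobase, the ratio of SPRY1 to SPRED1 was 1.92 (1.75 to 2.11), 23.9 (22.6 to 25.3) and 0.503 (0.455 to 0.555) under the headings Suspension, Adherent and Differentiating.

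The ETS factors, transcriptional targets of ERK, did not share 1 order. ETV5, at chr11:9063675-9067705, had 28.7 CPM (26.6 to 30.9), 159 CPM (153 to 165) and 16.1 CPM (14.5 to 17.8) under the headings Suspension, Adherent and Differentiating. It was 5.55-fold higher headed Adherent than headed Suspension (log2 ratio 2.47, 2.35 to 2.59) and 9.89-fold higher than headed Differentiating. ETV4, at chr29:2580345-2594989, had 108 CPM (104 to 112), 15.0 CPM (13.3 to 17.0) and 51.5 CPM (48.6 to 54.6), highest in the library headed Suspension and lowest where ETV5 was highest. It was 7.18-fold lower headed Adherent than headed Suspension (log2 ratio −2.84, −3.03 to −2.66), and its ratio of Differentiating to Suspension, −1.07, came to −0.90 with TMM scaling, inside the 2-fold limit. ETV1 had 31.9, 52.3 and 17.0 CPM, 3.07-fold higher headed Adherent than headed Differentiating. Per kilobase, the ratio of ETV5 to ETV4 was 0.388 (0.356 to 0.423), 15.5 (13.6 to 17.6) and 0.456 (0.404 to 0.513), so that ETV5 led in 1 library and ETV4 in the others.

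**Figure D3:**
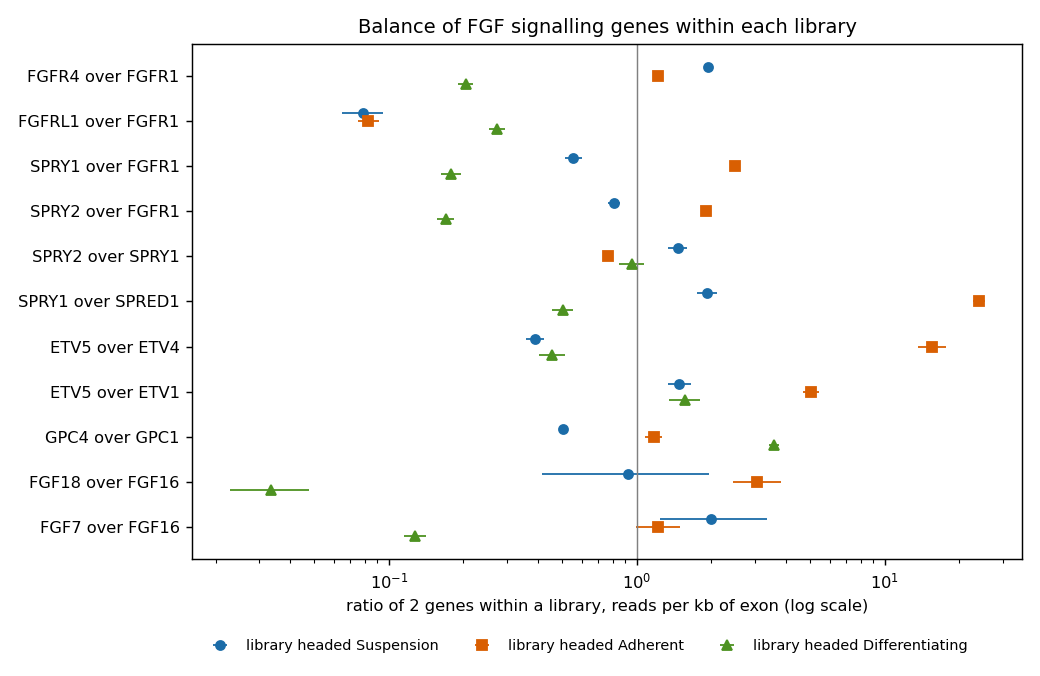
Ratios of paired FGF signalling genes within each library, per kilobase of exon on a log axis, with exact 95% counting intervals. The ratio of FGFR4 to FGFR1 is 1.94, 1.22 and 0.204 and that of ETV5 to ETV4 is 0.388, 15.5 and 0.456 under the headings Suspension, Adherent and Differentiating.

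Ratios of 2 genes within 1 library do not depend on how libraries are scaled to each other. FGFR4 over FGFR1 per kilobase was 1.94 (1.86 to 2.03), 1.22 (1.19 to 1.25) and 0.204 (0.190 to 0.219) under the headings Suspension, Adherent and Differentiating. SPRY1 over FGFR1 was 0.555 (0.514 to 0.599), 2.48 (2.42 to 2.54) and 0.178 (0.162 to 0.195), and SPRY2 over FGFR1 was 0.810, 1.90 and 0.170. The inhibitor transcripts thus exceeded the receptor transcript per kilobase in the library headed Adherent and were below it in the others. SPRY2 over SPRY1 moved less, from 0.766 to 1.46.

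Set side by side, the comparison of the library headed Adherent with that headed Suspension had the most calls. Of the 28 genes, 14 were at least 2-fold higher headed Adherent (50.0%), where 20.0% of 11020 genes of the table were, and 5 at least 2-fold lower (17.9%), where 21.6% were. The median log2 ratio of the 28 was 1.30, and that of all genes was −0.15. The 5 lower genes were ETV4, GPC1, FLRT2, GPC4 and FGFR1OP. Without FGFR1OP and FGFR1OP2 the counts were 14 higher and 4 lower of 26. With the headings exchanged, 5 were higher and 14 lower.

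Between the libraries headed Differentiating and Suspension, 8 of the 28 genes were at least 2-fold higher (28.6%, against 9.16% of 10929 genes) and 8 at least 2-fold lower (28.6%, against 14.5%), with a median of −0.02, where all genes had −0.18. The higher genes were FGF16, FGFBP1, FGFRL1, GPC3, FGF7, FLRT3, FGF18 and SPRED1, and the lower ones FGF12, FLRT2, GPC1, FGFR4, FGFR1OP, SPRY2, FGF13 and ETV4. TMM scaling moved the all-gene median to −0.01, and the calls over all genes, 1001 higher and 1580 lower as given, became 1221 and 1268.

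Between the libraries headed Adherent and Differentiating, 10 of the 28 genes were at least 2-fold higher headed Adherent (35.7%, against 22.7% of 11022 genes) and 4 at least 2-fold lower (14.3%, against 18.3%). The lower genes were FGFBP1, FGF16, GPC4 and ETV4. The median was 0.46, and that of all genes 0.05. The 3 comparisons share libraries, so each library enters 2 of them and their values are not independent of each other.

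**Figure D4:**
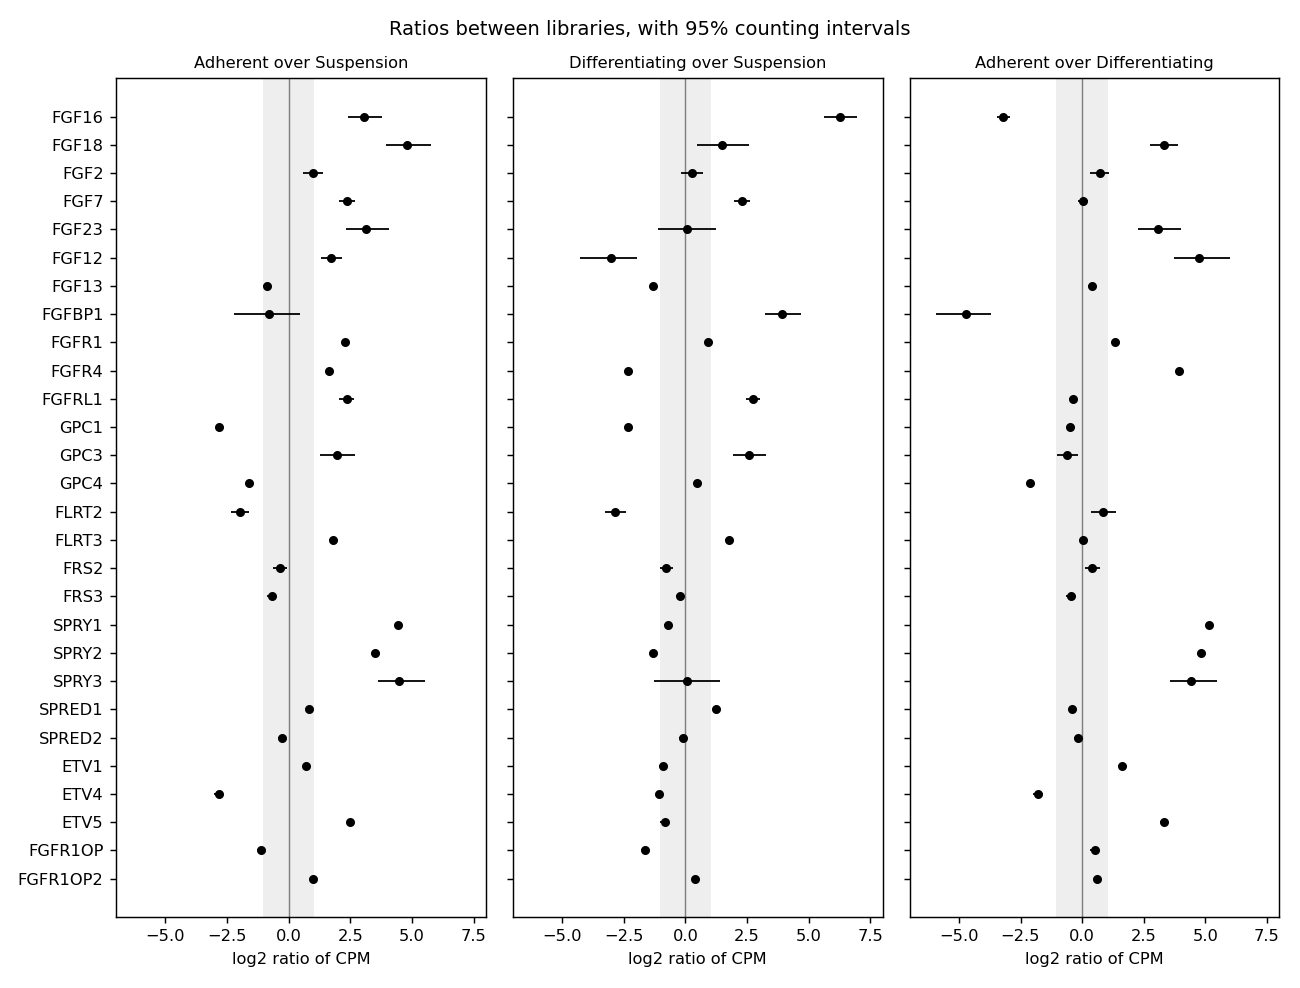
Log2 ratios of the 28 genes in the 3 comparisons, with exact 95% counting intervals and the range within 2-fold shaded. SPRY1 lies at 4.44 for Adherent over Suspension and 5.15 for Adherent over Differentiating, FGF16 at 6.26 for Differentiating over Suspension, and ETV4 at −2.84 for Adherent over Suspension.

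Intron reads, which are not part of the exon levels, gave a further readout. Over 9615 genes with at least 20 intron reads the median log2 ratio of Adherent to Suspension was 1.26 in introns and −0.15 in exons, so intron reads were more frequent in the library headed Adherent for most genes. Of the 28 genes, 24 had enough intron reads, with a median of 1.98. Only FGF18, FGFR4, SPRY1 and SPRY2 had a lower ratio in introns than in exons, at 2.77, 1.58, 3.23 (2.91 to 3.57) and 2.47 (2.18 to 2.77). For FGFR4 the intron interval, 1.45 to 1.72, held its exon ratio of 1.62, so it was not lower beyond counting error. Opposite signs in introns and exons were found in 6 genes, ETV4, FGF13, FRS2, FRS3, GPC1 and SPRED2. How many of all genes had opposite signs, or a lower ratio in introns than in exons, was not counted. These counts therefore do not set the described genes apart from other genes. Signs were taken against 0 and not against the all-gene intron median of 1.26, under which ETV4, FRS3 and GPC1 lay. GPC1 had 1.06 (0.76 to 1.37) in introns, under the median of all genes, and −2.83 in exons. FGF13 had 1.87 in introns and −0.90 in exons. ETV4 had 0.20 (−0.28 to 0.68) in introns, an interval that held 0, so its sign there is not settled. Its exon ratio was −2.84. GPC4, at −0.66 in introns and −1.62 in exons, and FLRT2, at −0.51 and −1.97, were lower in both kinds of read. The source of the intron reads was not tested.

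**Figure D5:**
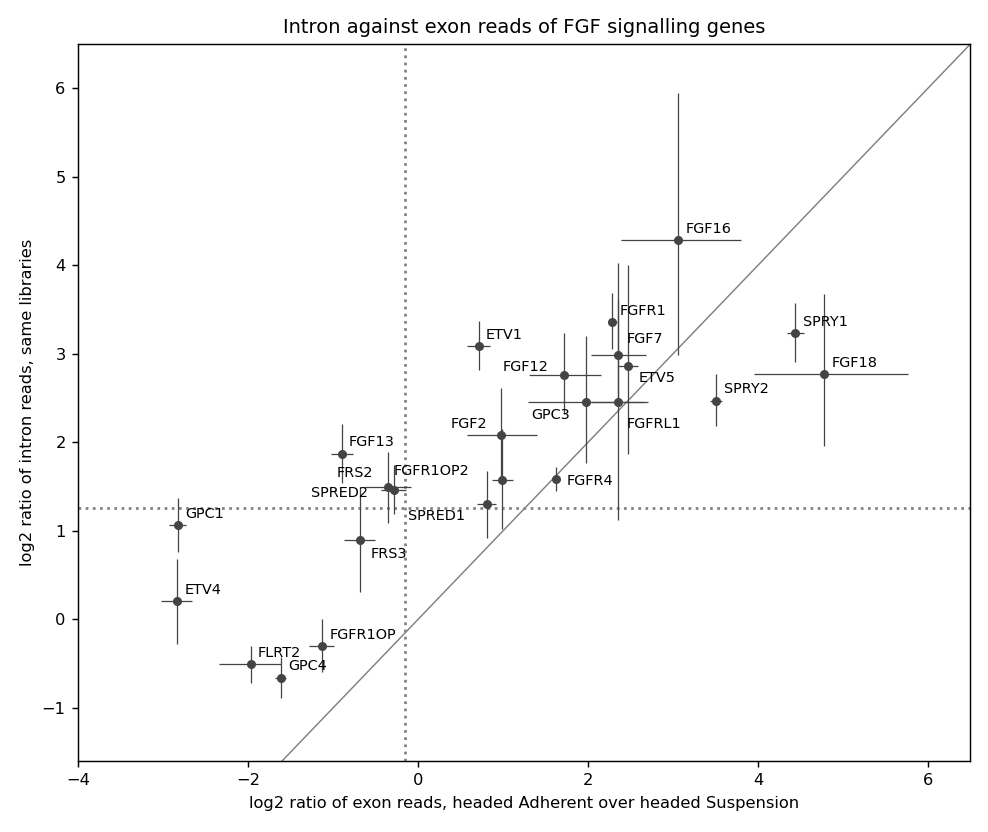
Log2 ratio of Adherent over Suspension in intron reads against that in exon reads for the 24 genes with enough intron reads, with 95% counting intervals. The dotted lines are the medians of all genes, 1.26 in introns and −0.15 in exons. Only FGF18, FGFR4, SPRY1 and SPRY2 lie below the line of equal ratios, FGFR4 within counting error. The share of all genes below it was not counted.

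The other genes of the pathway were counted over lists. The RAS-ERK relay, from adaptors to ERK and its RSK kinases, is given first. Of its 21 genes 3 were at least 2-fold higher headed Adherent than headed Suspension (against 20.0% of all genes) and 1 lower (against 21.6%), with a median of −0.28. The adaptor GRB2 had 437, 252 and 285 CPM under the headings Suspension, Adherent and Differentiating. BRAF, the kinase that activates MEK, had 2.60, 10.4 and 2.41 CPM and RPS6KA1, an RSK kinase, 98.6, 21.7 and 88.6 CPM.

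The dual specificity phosphatases and IL17RD, which switch off ERK and related kinases or hold back FGF receptors, stood with SPRY1 and SPRY2. Of 10 genes 8 were at least 2-fold higher headed Adherent than headed Suspension (against 20.0% of all genes) and 1 lower (against 21.6%), with a median of 2.22. Against the library headed Differentiating 8 were higher (22.7% of all genes) and none lower (18.3%). DUSP6, a phosphatase specific for ERK, had 42.2, 294 and 15.8 CPM under the headings Suspension, Adherent and Differentiating. DUSP1, an early gene that answers many stresses, had 89.1, 2171 and 33.8 CPM, and IL17RD 21.3, 79.2 and 3.20 CPM. These genes were highest in the library headed Adherent, as SPRY1, SPRY2 and ETV5 were.

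Among 7 early genes that ERK can induce, 3 were at least 2-fold higher headed Adherent than headed Suspension (against 20.0% of all genes) and 1 lower (against 21.6%). JUN, a subunit of AP-1, had 136, 9866 and 269 CPM and EGR1, a zinc finger early gene, 158, 4684 and 142 CPM. PHLDA1, which is likewise known as an ERK target, had 2077, 33.7 and 517 CPM, the order of ETV4 and not that of EGR1. The early genes also answer to cell handling and stress in general, and no measure of handling is in the table.

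Of the 12 genes under 5 CPM, the secreted ligands FGF3, FGF5, FGF6, FGF8, FGF20 and FGF22, the intracellular factor FGF14, FGF19, FGFBP2, FGFR3, GPC5 and SPRY4, none exceeded 3.32 CPM or 58 reads. In 6 of them at least 1 library had no read, where the limit that a count of 0 allows is 3 reads or 0.126 to 0.172 CPM, and 8 had no read across a splice junction. No ratio was called in these genes, which lie under the minimum. The reads under FGF19 are uncertain, since its feature ends at the base where RefSeq's Turkey_5.1 annotation ends FGF4. Positions are those of the table. The study names a turkey genome for its alignment, but no source used here says that the table has those positions, and 9005 of 18878 features matched by symbol end at the same base in RefSeq's Turkey_5.1.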

How the data were processed

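RNA of 3 cultures of turkey satellite cells was measured in 1 library each. The authors name bcl2fastq 2.20, STAR 2.5.2b and featureCounts, but no source used here says whether these made the table. The deposited counts are unscaled exon reads per gene, with intron, junction and unique reads beside them. The deposited RPKM values and the deposited fold-change scores, which are signed ratios of unscaled counts, gave no result here, the latter serving only the check of headings. No source used here says whether the counting used strand, so reads of overlapping genes are uncertain.

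Counts were divided by the exon total of the library (CPM) with pandas 2.3.3, numpy 2.4.6 and scipy 1.17.1 under Python 3.11.15, and plotted with matplotlib 3.10.9. Ratios used no pseudocount, genes with at least 5 CPM in a library and a limit of 2-fold. A count of 0 was set to a floor of 3 reads. Intervals of 95% were exact Poisson intervals for levels and Clopper-Pearson intervals for ratios. PCR copies are not independent molecules. TMM factors came from edgeR 4.0.16 in R 4.3.3, without a test. The calls were also run on simulated libraries that held counting error only, which cannot check the spread between cultures. Every gene of the family with at least 5 CPM was named, and from each pathway list up to 4 with the largest ratio and the 2 with the highest level. Some listed pathway and marker genes enter the list totals but are not reported here by name. Members and lists were chosen with earlier results of these data known. Of the 40 symbols 38 matched RefSeq's Turkey_5.1, whose coordinates are not given. No paired, batch or replicate analysis could be made with 1 library per group.

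The alternatives were TMM and median-of-ratios scaling, a pseudocount of 1 CPM, whole-gene and unique exon reads, no minimum or 20 CPM, limits of 1.5-fold and 4-fold, exchanged headings, and the list without FGFR1OP and FGFR1OP2.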

Additional observations from a re-analysis of the deposited data

How the results depend on the processing

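No paired analysis was possible because each group has 1 library, and no library could be left out. The 84 single-gene ratios were taken with the 28 genes kept fixed. Of these, 82 stayed on their side of 2-fold with TMM scaling, 80 with median-of-ratios scaling and 83 with a pseudocount of 1 CPM. With whole-gene reads 78 did and with unique exon reads 84, and none of those called turned its sign. With the minimum applied to unique exon reads, higher genes came to 12 for Adherent over Suspension and 6 for Differentiating over Suspension. Then 12 genes were highest headed Adherent. FGF7 had 16, 71 and 98 unique exon reads and FLRT3 9, 17 and 29 under the headings Suspension, Adherent and Differentiating. With a minimum of 20 CPM, which leaves fewer genes, the counts of higher genes came to 9 for Adherent over Suspension, 5 for Differentiating over Suspension and 6 for Adherent over Differentiating, 9 genes were highest in the library headed Adherent, and the medians of Adherent over Suspension and over Differentiating came to 0.99 and 0.05. By construction, a 4-fold limit left 5 higher and 4 lower genes for Differentiating over Suspension and 2 lower for Adherent over Suspension, where a 1.5-fold limit gave 8. With the headings Suspension and Adherent exchanged, Adherent over Suspension had 5 higher and 14 lower genes and a median of −1.30, Differentiating over Suspension had 4 higher, Adherent over Differentiating had 8 lower and a median of 0.02, and 8 genes were highest headed Adherent and 14 headed Suspension. The median of Differentiating over Suspension, −0.02, turned to 0.06 with TMM scaling, 0.17 with median-of-ratios scaling and 0.06 with no minimum, and so has no stable sign. TMM scaling gave medians of 0.98 for Adherent over Suspension and 0.23 for Adherent over Differentiating, where all genes had −0.17 and −0.14. The median of Adherent over Suspension was 0.99 with unique exon reads and 1.67 without FGFR1OP and FGFR1OP2. The causes of the shifts in medians were not tested. Depth limits FGF18, FGF23, FGF12, FGFBP1 and SPRY3, which had few reads in their lower libraries, and FGF16, which had few headed Suspension. Counting intervals leave out the spread between cultures, which these data do not hold.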

Other observations

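Genes that make, edit or carry heparan sulphate, the chain that FGFs need for binding their receptors, were counted over a list. Of 13 synthesis and editing genes with at least 5 CPM in a library, 2 were at least 2-fold higher headed Adherent than headed Suspension (against 20.0% of all genes) and 2 lower (against 21.6%), shares near those of all genes, with a median of 0.01. XYLT1, which starts the chain, had 14.5, 60.1 and 35.8 CPM under the headings Suspension, Adherent and Differentiating, EXTL3 had 236, 78.4 and 127 CPM, and EXT1, a chain polymerase, 70.1, 78.9 and 118 CPM. HS3ST5, a sulphotransferase, had 6.08, 10.9 and 0.351 CPM.

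The carriers other than glypicans differed gene by gene. Of the syndecans, SDC1 had 144, 35.1 and 344 CPM under the headings Suspension, Adherent and Differentiating and SDC4 had 7.80, 191 and 14.9 CPM, so that the library lowest in SDC1 was highest in SDC4. AGRN, the agrin of the neuromuscular junction, had 43.9, 121 and 3.86 CPM. Among cell surface partners, the adhesion molecules NCAM1 and CDH2, both known to bind FGFR1, had 1236, 179.6 and 195 CPM and 621, 15.6 and 143 CPM, highest in the library headed Suspension as GPC1 was. KLB, the co-receptor of endocrine FGFs, had 28.9, 81.1 and 21.9 CPM.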
